A study of Mus musculus with 7 samples.

Results

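HDAC1 peaks were examined at the genes for the protein components of the cytosolic ribosome. Members were the protein-coding genes of the GENCODE M21 annotation whose symbols begin with Rpl or Rps followed by a number, together with Rplp0, Rplp1, Rplp2 and Rpsa, and without the Rps6k kinase genes. This rule found 82 of 21851 protein-coding genes, 50 for the large subunit and 32 for the small subunit. The rule uses gene symbols and no HDAC1 value, although it was drawn up with earlier results of these data known. HDAC1 binding was profiled by ChIP-seq, which sequences the DNA recovered with an antibody from fixed chromatin, in wild-type limb buds of Swiss Webster mouse embryos. There were 4 HDAC1 ChIP samples (antibody Abcam ab7028) and 3 input samples, each labelled as forelimb and hindlimb buds pooled from 3 litters at E11.5 (40 to 44 somites). The authors deposited 1 list of 15347 peaks for all of these samples, with no value per sample, so no number given here has a replicate error and the depth behind a peak is not known. The list is of coordinates only and holds no measure of transcription, and whole limb buds mix several cell types, so a peak cannot be assigned to one of them.

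Ribosomal proteins assemble with ribosomal RNA into the small subunit, which decodes mRNA, and the large subunit, which joins amino acids. Their genes are active in every growing cell, are short, and often carry small nucleolar RNAs (snoRNAs) in their introns. The mRNAs typically begin with a run of pyrimidines, the 5' terminal oligopyrimidine tract, through which the mTORC1 kinase complex and the RNA-binding protein Larp1 control their translation. HDAC1 removes acetyl groups from histone tails and is part of several corepressor complexes, and it is also commonly found by ChIP at active promoters.

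The sequence at the start sites is given before the peaks, since a tract of C and T is a known feature of this gene class. The windows printed here run from 75 bases before to 25 bases from the transcription start site (TSS) of the reference transcript, 5' to 3' on the coding strand, and capitals mark the longest run of C and T within 20 bases of the TSS. A run that passed this limit was cut there, so some marked runs go on in small letters. Shown first are the best-ranked gene of each subunit, a stalk protein gene, and 2 genes with long runs across the TSS, all of which had a peak. The windows are, in mm10, Rps19, chr7:24884296-24884395 (plus strand), Rpl12, chr2:32961484-32961583 (plus strand), Rplp1, chr9:61914518-61914617 (minus strand), Rps2, chr17:24720035-24720134 (plus strand) and Rps24, chr14:24490643-24490742 (plus strand).
Rps19: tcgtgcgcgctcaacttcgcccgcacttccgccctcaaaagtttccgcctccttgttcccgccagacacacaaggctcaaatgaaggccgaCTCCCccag
Rpl12: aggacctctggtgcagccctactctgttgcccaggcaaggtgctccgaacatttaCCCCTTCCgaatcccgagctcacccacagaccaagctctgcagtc
Rplp1: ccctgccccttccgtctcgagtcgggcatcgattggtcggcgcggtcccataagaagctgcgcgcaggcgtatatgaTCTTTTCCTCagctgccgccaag
Rps2: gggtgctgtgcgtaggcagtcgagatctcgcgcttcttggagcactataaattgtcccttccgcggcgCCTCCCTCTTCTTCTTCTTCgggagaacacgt
Rps24: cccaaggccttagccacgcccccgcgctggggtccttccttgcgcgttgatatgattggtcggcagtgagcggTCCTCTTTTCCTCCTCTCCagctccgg

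The 6 members without a peak that are not on the list of paralogs are shown for contrast. Their windows are Rpl26, chr11:68901560-68901659 (plus strand), Rpl34, chr3:130730313-130730412 (minus strand), Rps28, chr17:33824538-33824637 (minus strand), Rps13, chr7:116334171-116334270 (minus strand), Rps4x, chrX:102189370-102189469 (minus strand) and Rpl36a, chrX:134585579-134585678 (plus strand).
Rpl26: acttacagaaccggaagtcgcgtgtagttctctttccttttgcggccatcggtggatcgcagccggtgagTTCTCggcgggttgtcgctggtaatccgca
Rpl34: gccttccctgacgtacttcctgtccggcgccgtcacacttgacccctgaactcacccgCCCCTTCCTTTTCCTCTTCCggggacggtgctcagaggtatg
Rps28: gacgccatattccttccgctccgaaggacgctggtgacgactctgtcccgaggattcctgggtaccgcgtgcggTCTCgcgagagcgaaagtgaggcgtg
Rps13: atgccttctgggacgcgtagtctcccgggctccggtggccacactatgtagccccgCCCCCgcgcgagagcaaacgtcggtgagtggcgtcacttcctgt
Rps4x: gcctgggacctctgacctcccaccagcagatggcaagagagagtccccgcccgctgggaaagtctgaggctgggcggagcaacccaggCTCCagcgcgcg
Rpl36a: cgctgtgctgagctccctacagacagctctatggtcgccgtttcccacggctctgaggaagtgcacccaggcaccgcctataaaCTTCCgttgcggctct
Both sets held TSSs with and without a long run. The run measured 20 bases at Rps2, which had a peak, and also 20 bases at Rpl34, which had none. It measured 5 bases at Rps19, the best-ranked member, where it was cut at the limit of 20 bases and goes on in the printed window.

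A gene was counted as having a peak when at least 1 bp of a peak lay between 2 kb upstream and 1 kb downstream of any of its protein-coding TSSs. By this measure 72 of the 82 ribosomal protein genes had an HDAC1 peak (87.8%, 95% Wilson interval 79.0 to 93.2). Among all protein-coding genes the share was 44.1% (9630 of 21851). The Wilson intervals cover counting over genes only, and genes are not replicates of the experiment. The 72 genes were covered by 95 peaks, and no peak lay in the windows of 2 members. Both subunits were alike in their shares, with 44 of 50 large subunit genes (88.0%, interval 76.2 to 94.4) and 28 of 32 small subunit genes (87.5%, interval 71.9 to 95.03).

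Most ribosomal protein genes start in CpG-rich DNA, as do many widely expressed genes. A TSS was called CpG-rich when the 500 bp on both sides had a GC content above 50% and a ratio of observed to expected CpG above 0.6. This held for 70 of the 82 members (85.4%) and for 45.8% of all protein-coding genes. Among protein-coding genes with a CpG-rich TSS, 80.1% had an HDAC1 peak, so much of the gap between the members and all genes was also seen for the CpG-rich genes as a whole. The members with such a TSS stood at 64 of 70 (91.4%, interval 82.5 to 96.0). Of the 12 members without one, 8 had a peak (66.7%, interval 39.1 to 86.2), compared with 13.6% of all protein-coding genes without a CpG-rich TSS. Most of these 8 were near the limit. Rpl4, Rps9, Rps26, Rpl41, Rpl23a and Rpl10 had ratios of 0.63 to 0.84 and missed only the GC limit, at 46.6 to 49.5%. Only Rps14 (0.31) and Rpl18 (0.55) had a ratio below 0.6. How near the other protein-coding genes lay to the limit was not compared, so the 2 shares may be of unlike genes. The part of CpG content in the members' share was not tested further.

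**Figure D1:**
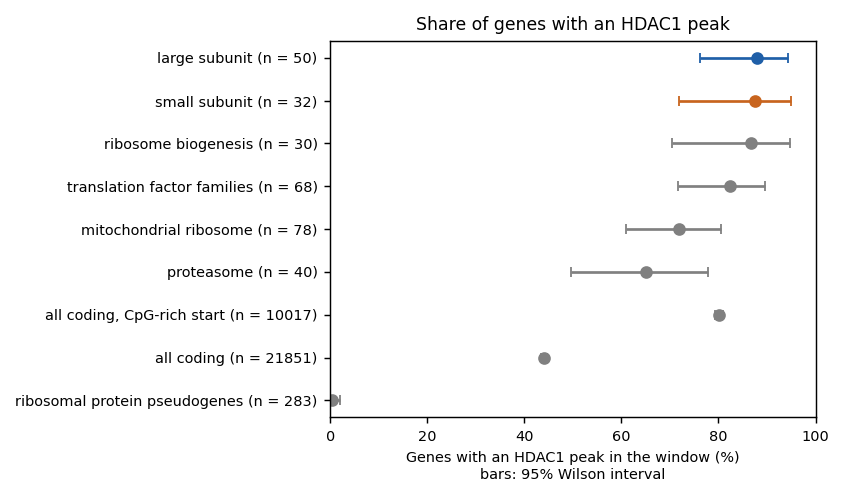
Share of genes with an HDAC1 peak (%, x axis) in each gene list, as points with 95% Wilson intervals (n is the number of genes). Large subunit (88.0%) and small subunit genes (87.5%) sit to the right of the mitochondrial ribosome (71.8%), the proteasome (65.0%) and all protein-coding genes (44.1%), and their intervals include the 80.1% of coding genes with a CpG-rich TSS.

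The order of the list was taken as the authors' rank, with rank 1 first, since the study calls the list rank ordered, and the value behind that order is not known here. When a gene had several peaks, the best-ranked one was used. The median best rank of the 72 members was 4167.5 (quartiles 2202.5 to 6404.25, range 129 to 14049), ahead of the 5174.5 for all 9630 protein-coding genes with a peak. The first 3836 ranks held the best peak of 33 members (45.8%) and the last 3839 ranks that of 2 members (2.78%). For all protein-coding genes with a peak these shares were 38.3% and 12.7%, and for those with a CpG-rich TSS 40.8% and 10.9%. Members were thus few at the bottom of the list. The first 1000 ranks held the best peak of 8 members (9.76% of the 82) and of 991 protein-coding genes (4.54%). These last shares are of all genes, with or without a peak, so they also carry the members' higher share with a peak. Among genes with a peak the counts were 8 of 72 and 991 of 9630, which are similar shares.

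Peaks at members were also longer. Their median length was 800 bp (quartiles 550 to 1100, range 200 to 1900), against 650 bp (quartiles 400 to 1000) for all protein-coding genes with a peak. With a CpG-rich TSS the medians were 800 bp for members and 700 bp for all protein-coding genes with a peak. A length of 1000 bp or more was reached at 27 members (37.5%), compared with 27.1% of protein-coding genes with a peak, and 13 members had a best peak under 500 bp. Longer peaks tended to rank better, but among members this relation was looser (Spearman rho -0.47 over 72 genes) than among all protein-coding genes with a peak (rho -0.73 over 9630). These correlations are across genes of 1 list, and both measures come from the same peak.

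**Figure D2:**
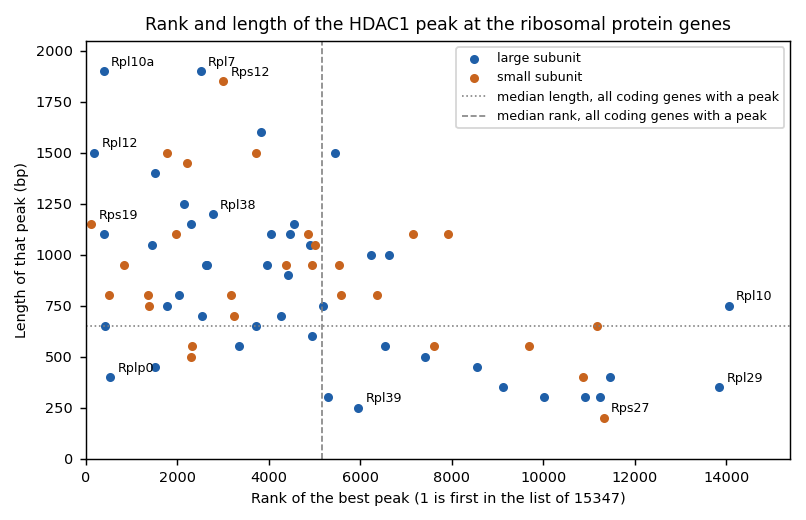
Rank of the best HDAC1 peak (x axis, 1 is first of 15347) against its length in bp (y axis) for the 72 ribosomal protein genes with a peak, blue for the large and orange for the small subunit; dotted and dashed lines give the medians of all protein-coding genes with a peak (650 bp and rank 5174.5). Rps19 and Rpl12 lie at the far left, Rplp0 pairs a good rank with a short peak of 400 bp, and Rpl10 pairs the worst rank with 750 bp.

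The best-ranked member was Rps19, a small subunit protein needed for maturation of the small subunit RNA and the gene most often mutated in Diamond-Blackfan anaemia. Its peak ranked 129, was 1150 bp long (chr7:24884550-24885699) and began 179 bp downstream of the reference TSS, within the transcribed region. Rpl12, which sits at the base of the ribosomal stalk, followed at rank 196 with a peak of 1500 bp (chr2:32961350-32962849). That peak spanned the TSS and lay in a window shared with Lrsam1, which is transcribed from the opposite strand, so it cannot be assigned to one of the 2 genes.

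The stalk, which recruits translation factors to the large subunit, is built from Rplp0, Rplp1 and Rplp2, and all 3 of these genes had a peak. Rplp1 ranked 434 with 650 bp and Rplp0 ranked 537 with only 400 bp. Rplp2 came later, at rank 3973, with 950 bp. The first pair combined good ranks with lengths at or below the median of all protein-coding genes.

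The others among the 9 best-ranked members came from both subunits. Rpl10a, a protein of the mobile L1 stalk, ranked 402 with a peak of 1900 bp. Rpl30 ranked 404 with 1100 bp. Rpsa, also known as the laminin receptor and a protein of the small subunit, ranked 521 with 800 bp. Rps27l, a paralog of Rps27 that is induced by p53, ranked 835 with 950 bp. Rps6, the small subunit protein phosphorylated by the S6 kinases, ranked 1373 with 800 bp. The 9 best-ranked members thus held 5 large and 4 small subunit genes, including 1 paralog. Rpl38 lay outside them and was chosen after its values were seen, because its loss disturbs axial skeletal patterning in mice. It ranked 2783 with a peak of 1200 bp across the TSS.

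In the middle of the members' order, both subunits had nearly the same rank. The large subunit had a median of 4167.5, between Rpl41 (rank 4056, 1100 bp) and Rpl22 (rank 4279, 700 bp). Rpl41 encodes the smallest ribosomal protein. The small subunit had a median of 4045.5, and the member just ahead of it was Rps18 (rank 3721, 1500 bp). Rps18 is a protein of the head of the small subunit. Median lengths were 775 bp for large and 875 bp for small subunit genes, with quartiles that overlapped (487.5 to 1100 and 687.5 to 1100 bp).

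At the other end, the 5 worst-ranked members lay between ranks 11250 and 14049. Rpl6 ranked 11250 with 300 bp and Rps27 ranked 11323 with 200 bp, the shortest best peak of any member. Rpl15 ranked 11468 with 400 bp and Rpl29 ranked 13845 with 350 bp. Rpl10, an X-linked gene whose protein is added late and is needed for the joining of the subunits, had the worst rank at 14049 with 750 bp. Of these 5 peaks, those at Rpl6, Rps27, Rpl15 and Rpl10 began between 90 and 152 bp downstream of the TSS, and that at Rpl29 began 4 bp upstream of it.

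The longest best peaks belonged to Rpl10a and Rpl7 (1900 bp each), Rps12 (1850 bp) and Rpl7a (1600 bp), followed by Rpl12, Rps10, Rps18 and Rpl36al at 1500 bp each. Of these 8 genes, all except Rpl10a and Rps12 had the TSS of a further protein-coding gene in their window. Among the shortest after Rps27 were those at Rpl39 (250 bp) and at Rpl27, Rpl37 and Rpl6 (300 bp each).

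Peaks at ribosomal protein genes sat downstream of the TSS. The centre of the best peak lay a median of 338 bp downstream of the reference TSS (quartiles 185 to 455), further than the 183 bp of all protein-coding genes with a peak (quartiles -14 to 368). It was downstream at 62 of 72 members (86.1%), against 73.8% of protein-coding genes with a peak. The best peak covered the TSS at 43 members, lay wholly downstream at 26 (36.1%) and wholly upstream at 3. For all protein-coding genes with a peak, 26.7% lay wholly downstream and 12.5% wholly upstream. When every peak was counted, the TSS itself was inside a peak at 48 members, or 66.7% of those with a peak, which was close to the 64.9% of all protein-coding genes with a peak. The downstream shift depends on which TSS is used, since measured from the nearest annotated protein-coding TSS the median was 230 bp. That measure was not taken for all protein-coding genes, so the 230 bp cannot be set against their 183 bp. The 56 members with a peak and no other protein-coding TSS in the window had a median centre of 360 bp downstream.

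Coverage along the promoter had the same form. It was highest 200 bp downstream of the TSS, where 95.8% of the 72 members were inside a peak. All protein-coding genes with a peak had their highest coverage at 150 bp, of 73.9%. At the TSS the values were 66.7% and 64.9%, and 500 bp upstream they were 18.1% and 19.8%. At 500 bp downstream 73.6% of members were covered, against 50.6% of all protein-coding genes with a peak, and at 1000 bp downstream 25% against 16.9%. Measured from the reference TSS, the members therefore differed from all protein-coding genes with a peak on the downstream side, and little at the TSS and 500 bp upstream. Part of this form was shared with other groups, since proteasome genes with a peak had its centre downstream in 88.5% and the best peak wholly downstream in 34.6%, close to the members' 86.1% and 36.1%. Their median centre, at 168 bp, was nearer to the TSS than that of the members.

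**Figure D3:**
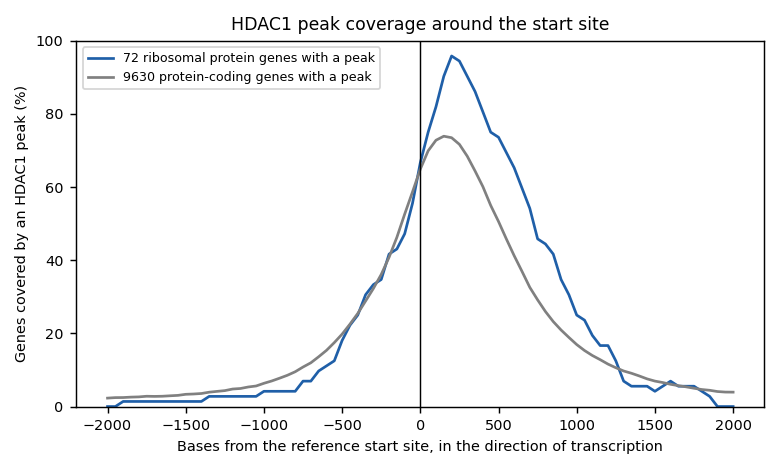
Percentage of genes inside an HDAC1 peak (y axis) by distance from the reference TSS in bases (x axis, positive in the direction of transcription), for the 72 ribosomal protein genes (blue) and the 9630 protein-coding genes with a peak (grey). The lines run close together upstream and separate downstream, where the members reach 95.8% at 200 bases and the coding genes reach 73.9% at 150 bases.

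The peaks lay over introns and coding exons of these short genes. The reference transcripts of the 72 members spanned a median of 3138 bp of the genome, compared with 24602 bp for all protein-coding genes with a peak, and their first intron had a median length of 382 bp compared with 3712 bp. The best peak overlapped the first exon at 61 members (84.7%), the first intron at 67 (93.1%) and the second exon at 45 (62.5%). In all protein-coding genes with a peak the first exon was reached in 79.9%, the first intron in 68.5% and the second exon in 8.28%. Proteasome genes with a peak stood at 84.6%, 88.5% and 3.85%. Mitochondrial ribosomal protein genes with a peak stood at 89.3% for the first exon and 23.2% for the second. Their share for the first intron lay between those of the other lists. The members thus stood out for the second exon, and little for the first exon. The start codon lay in a peak at 57 members (79.2%), against 52.3% of all protein-coding genes with a peak and 80.4% of mitochondrial ribosomal protein genes with one. Peaks covered a median of 22.7% of the transcribed region (quartiles 14.0 to 37.9), against 1.69% for all protein-coding genes with a peak. The highest coverage was at Rpl41, where 86.9% of a transcribed region of 1192 bp lay in a peak. Mitochondrial ribosomal protein genes, with a median span of 5928 bp, had a median coverage of 5.83%. Short genes and downstream peaks both raise these shares, and their parts cannot be told apart.

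**Figure D4:**
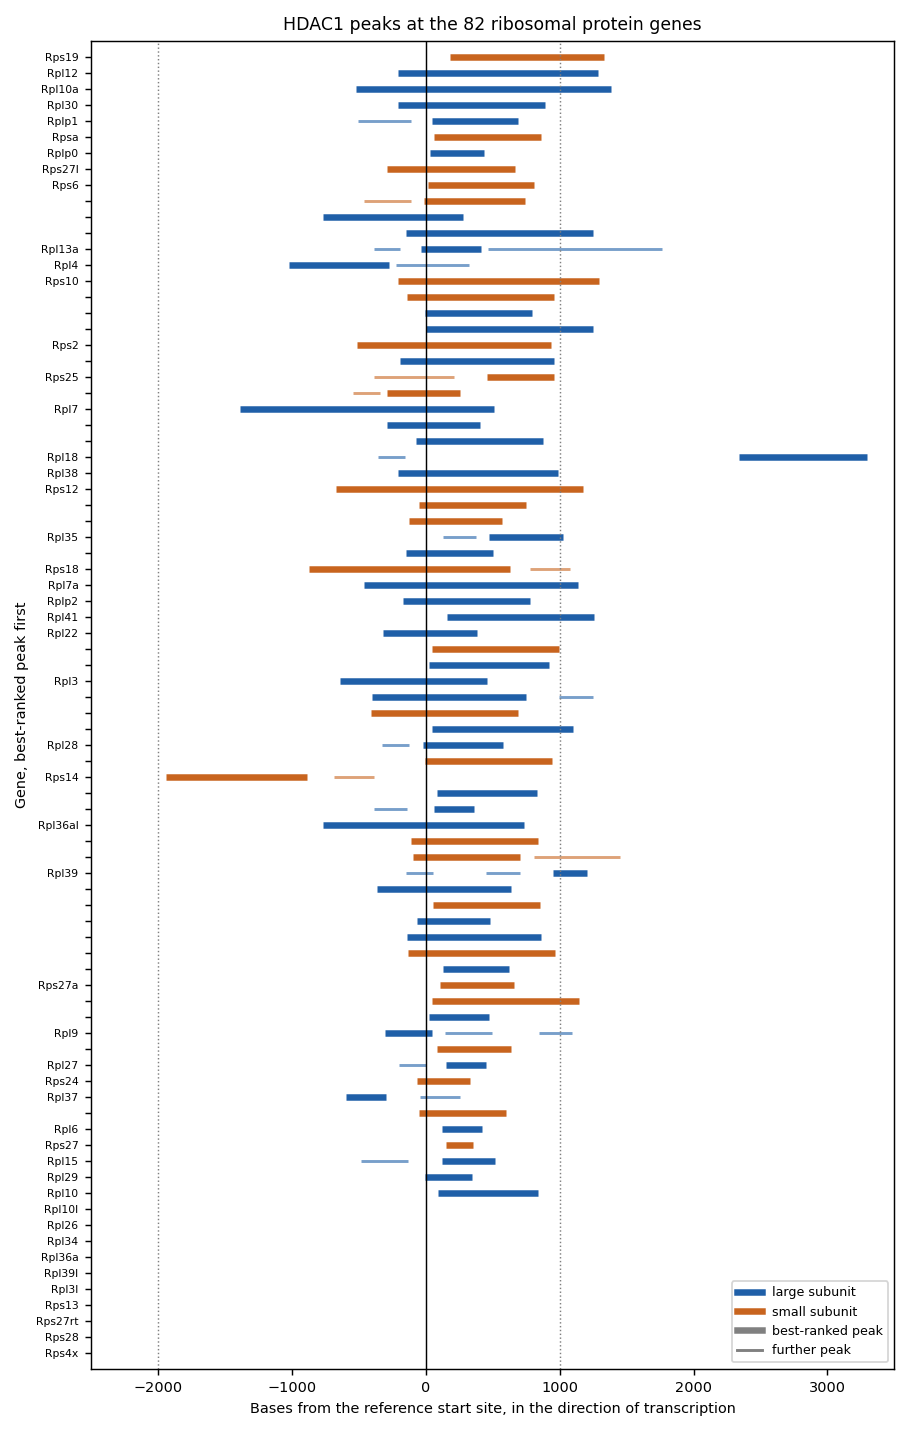
Extent of each HDAC1 peak from its first to its last base (x axis, bases from the reference TSS in the direction of transcription) for the 82 ribosomal protein genes (rows, best rank at the top, some rows labelled), with thick bars for best-ranked and thin bars for further peaks, blue for large and orange for small subunit genes, and dotted lines at the edges of the window around the reference TSS. Most thick bars begin near the TSS and extend to its right, the 10 lowest rows have no peak, and 1 peak of Rps14 lies beyond the left edge and is not drawn.

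More than 1 peak was found at 19 members (26.4%), compared with 21.4% of protein-coding genes with a peak. There were 15 members with 2 peaks and 4 with 3 (Rpl13a, Rps14, Rpl39 and Rpl9). At 14 of the 19 the peaks had centres on both sides of the TSS, separated by gaps with a median of 150 bp. This layout was not counted for all protein-coding genes with several peaks, so it is not shown to be particular to the members. At Rplp1, for instance, the best peak ran from 43 to 692 bp from the TSS and a second, at rank 14128, from -507 to -108 bp, with the TSS in the uncovered 150 bp between them. The same layout, with the TSS uncovered between a downstream and an upstream peak, was present at Rpl15 (gap of 250 bp) and at Rpl18, where the gap was 2500 bp. At Rpl28 and Rpl13a the downstream peak began just before the TSS, 100 to 150 bp from an upstream peak that ended more than 100 bp before it. Rps18, Rps25, Rpl4, Rpl37, Rpl9, Rpl27 and Rpl39 also had centres on both sides with the TSS inside one of the peaks. Rpl32 and Rpl35 had all centres on one side.

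Rpl18 and Rps14 had the best peaks centred furthest from the reference TSS. At Rpl18 the best peak (rank 2659, 950 bp) lay 2343 to 3292 bp downstream of the reference TSS, in the window of another annotated TSS of the gene, and a peak of 200 bp (rank 9139) ran from -357 to -158 bp. At Rps14, a small subunit protein near the mRNA exit channel, the best peak (rank 5021, 1050 bp) ran from -1939 to -890 bp, and another of 1450 bp (rank 8732) ran from -28789 to -27340 bp, at a further annotated TSS. The reference TSS of Rps14 was CpG-poor (observed over expected 0.31). For both genes the distance to the TSS is therefore set by the choice of transcript. Rpl39, a protein of the peptide exit tunnel, had 3 short peaks of 200 to 250 bp in a row, reaching 1202 bp downstream, and the one furthest downstream had the best rank (5956).

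Of the 10 members without a peak, 4 were paralogs of core ribosomal protein genes. These were Rpl3l, found in heart and skeletal muscle, Rpl10l and Rpl39l, found in the testis, and the retrogene Rps27rt. The list of paralogs held 2 further protein-coding members, the more widely expressed Rps27l and Rpl36al, and both had a peak, the latter in a window shared with Mgat2 on the opposite strand. Without these 6 paralogs, 70 of 76 members had a peak (92.1%, interval 83.8 to 96.3). Rpl3l and Rps27rt had their nearest peaks at 3371 and 3640 bp from the reference TSS and were counted within 5 kb. The nearest peaks to Rpl39l and Rpl10l were 173179 and 937049 bp away.

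The other 6 members without a peak were core ribosomal protein genes, Rps28, Rpl34, Rps13, Rpl26, Rps4x and Rpl36a. None of them was a near miss, with the nearest peaks at 6563, 20838, 26146, 48486, 61106 and 100546 bp from the reference TSS. Rpl26 lies near the exit of the peptide tunnel, and its TSS had a GC content of 58.6% and a CpG ratio of 0.76, which was inside the range of the members with a peak. Rpl34, with 60.3% and 0.99, was also CpG-rich, as were Rps28, Rps13 and Rpl36a. Only Rps4x (0.51) was below the limit among these 6.

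Of the 4 X-linked members, Rpl10 and Rpl39 had a peak and Rps4x and Rpl36a had none. The best ranks of the former were 14049 and 5956, both behind the median of all members. X-linked protein-coding genes had a peak in 17.8% (169 of 948), below the 44.1% of all protein-coding genes. The share of the 4 members was 50%, with an interval from 15.0 to 85.0%. Whether the chromosome bears on the members without a peak was not tested.

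Several members share a promoter region with another gene. The TSS of a different protein-coding gene lay in the window of 17 members, and 16 of these had a peak. The exception was Rps28, opposite Ndufa7. The neighbours were Lrsam1 (with Rpl12), Iqcg (Rpl35a), Zwilch (Rpl4), the read-through RPS10-NUDT3 (Rps10), Rnf151 (Rps2), Trappc4 (Rps25), Rdh10 (Rpl7), Sphk2 (Rpl18), Vps52 (Rps18), Med22 (Rpl7a), Ndst1 (Rps14), Mgat2 (Rpl36al), Clhc1 (Rps27a), Lias (Rpl9), Rab13 (Rps27) and Nkiras1 (Rpl15). The best peak was centred upstream of the reference TSS at 10 members, and 7 of these had such a neighbour, with centres at -1414 bp (Rps14), -650 bp (Rpl4), -438 bp (Rpl7), -244 bp (Rpl35a), -130 bp (Rpl9), -122 bp (Rps18) and -16 bp (Rpl36al). Rpl37 and Rpl3 were upstream without such a neighbour. This split was noticed after the values were seen, and the peaks cannot be assigned to one gene of a pair. Among the 65 members with no such neighbour, 56 had a peak (86.2%, interval 75.7 to 92.5) with a median length of 800 bp.

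Genes with a snoRNA annotated inside them had a peak in 28 of 29 cases (96.6%, interval 82.8 to 99.4), and the remaining members in 44 of 53 (83.0%, interval 70.8 to 90.8), with overlapping intervals. Rps13, which hosts Snord14a, was the one host without a peak. The 4 paralogs without a peak were all among the members that host no snoRNA, which lowers the share of that group. Median lengths were 950 and 800 bp. The hosts with the most snoRNAs included Rpl4 with 5 and Rpl13a with 4.

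Sequence at the TSS was compared next, as a property that the choice of members did not use. A run of at least 8 C and T within 20 bases of the TSS was present at 30 of 82 members (36.6%) and at 15.6% of all protein-coding genes. Of the 30, 29 had a peak (96.7%, interval 83.3 to 99.4), with Rpl34 as the exception. Of the 52 without such a run 43 had a peak (82.7%, interval 70.3 to 90.6), and these 52 included all 4 paralogs without a peak. The intervals overlapped, and in all protein-coding genes the share with a peak was 41.2% with a run and 44.6% without it.

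Short motifs were searched from 250 bases before to 50 after the TSS, and none of them contains another. The ETS-type letters CCGGAA, on either strand, were found at 37 members (45.1%) and in 18.2% of all protein-coding genes. The palindromic CpG motif CTCGCGAGA, on either strand, was found at 9 members (10.98%) and in 0.888%. AAGATGG, part of the YY1 motif, was found on either strand at 9 members (10.98%) and in 6.35%. GGGCGG, the Sp1-type box, was present on either strand at 39 members (47.6%) and in 45.5%, and TATAAA, on the coding strand, at 5 members (6.10%) and in 8.74%. Members with and without a motif had similar shares with a peak for GGGCGG (87.2% and 88.4%) and CCGGAA (89.2% and 86.7%). Over all protein-coding genes the same comparison gave 66.1% and 25.7% for GGGCGG and 66.6% and 39.1% for CCGGAA. All 9 members with AAGATGG had a peak (interval 70.1 to 100%), compared with 86.3% of members without it and 50.04% of all protein-coding genes with it. Of the 9 with CTCGCGAGA, 7 had a peak (77.8%), the exceptions being Rpl26 and Rps28. This share was that of all protein-coding genes with the motif (77.8%), and members without it stood at 89.0%. A match of letters is not evidence that a factor binds there.

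**Figure D5:**
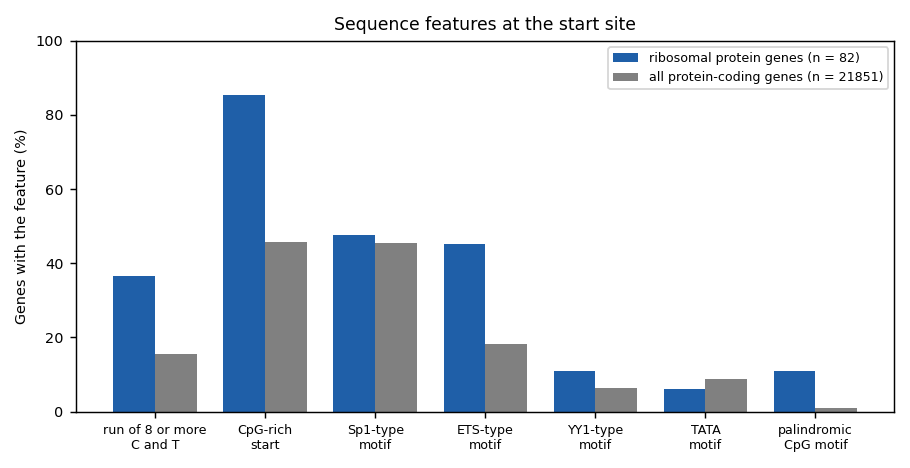
Percentage of genes with each sequence feature at the reference TSS (y axis), for the 82 ribosomal protein genes (blue) and all 21851 protein-coding genes (grey): the run of 8 or more C and T, a CpG-rich TSS, and the Sp1-type, ETS-type, YY1-type, TATA and palindromic CpG motifs spelled out in the text. The members exceed all coding genes for the run (36.6% and 15.6%) and the ETS-type motif (45.1% and 18.2%), and the bars for the Sp1-type motif are nearly level (47.6% and 45.5%).

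Other gene groups of protein synthesis and of protein breakdown, most of whose genes are widely expressed, were compared. Mitochondrial ribosomal protein genes, which serve the separate ribosome of that organelle, had a peak in 56 of 78 (71.8%, interval 61.0 to 80.6), with peaks of 550 bp (median), a median rank of 6689 and a median centre 108 bp downstream of the TSS. Proteasome genes had a peak in 26 of 40 (65.0%, interval 49.5 to 77.9), with peaks of 550 bp (median) and a median rank of 7701. This list was chosen by symbol and includes genes of restricted expression, Psma8, Psmb8, Psmb9, Psmb10 and Psmb11, none of which had a peak. It also includes Psmc3ip, which encodes no proteasome subunit and had a peak. A share without these genes was not taken, so the contrast with the members may be overstated. Both groups had lower shares, shorter peaks and later ranks than the cytosolic ribosomal protein genes, although the interval for the mitochondrial genes overlapped that of the members slightly. The translation factor families Eif1 to Eif6, Eef1 and Eef2, chosen by symbol and including some of their kinases and methyltransferases, reached 56 of 68 (82.4%, interval 71.6 to 89.6) with a median of 825 bp and a median rank of 4513.5. Ribosome biogenesis genes reached 26 of 30 (86.7%, interval 70.3 to 94.7) with a median of 925 bp and a median rank of 2518, ahead of the members' 4167.5. The first 3836 ranks held the best peak of 57.7% of biogenesis genes and 48.2% of translation factor genes with a peak, against 45.8% of the members. These last 2 groups were close to the members in share and length, so good ranks were not particular to the members.

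Fau and Rps3a1 encode cytosolic ribosomal proteins under symbols that the rule does not match, and both had a peak. Fau, a fusion of a ubiquitin-like protein with Rps30, ranked 2700 with 600 bp. The same peak was the best one of the mitochondrial ribosomal protein gene Mrpl49, so it cannot be assigned to either gene alone. Rps3a1 ranked 6760 with 800 bp. Annotated pseudogenes with an Rpl or Rps symbol ending in -ps, with or without a number, were nearly free of peaks, with 1 of 283 (0.353%, interval 0.0624 to 1.97). That one had a peak of 150 bp at rank 15110. Ribosomal protein pseudogenes under other symbols were not counted, and the share for pseudogenes of other genes was not taken. How reads shared by a gene and its near-identical copies were assigned is not given in the sources used here, so values at both are uncertain to that extent.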

How the data were processed

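HDAC1 ChIP-seq was performed by the authors on 4 ChIP and 3 input samples of pooled limb buds. Reads were mapped to mm10 with Bowtie2 2.2.5 according to the submitters' processing notes, and per the study's methods peaks were called with CisGenome. The deposited list has a chromosome, start and end for each of 15347 peaks. These values are coordinates, with no count, signal, p-value or fold, and replicates were pooled into 1 list. The study calls the list rank ordered and speaks of fold and false discovery rate columns, which were not used here. The value behind the order is not given in the sources used here.

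Coordinates were taken as 1-based and inclusive at both ends. TSSs came from the GENCODE M21 basic annotation and sequence from the GRCm38 genome of the same build. The reference transcript was chosen by APPRIS tag, transcript support level and length. Windows ran from 2000 bp upstream to 1000 bp downstream of each protein-coding TSS, and the minimum overlap was 1 bp. By the rule 4 further symbols (Rpl37rt, Rps4l, Rpl32l and Rpl6l) were not protein-coding and were left out. Shares are given with 95% Wilson intervals. No test was run, since 1 list has no replicates. Named genes were all members without a peak, the 10 best and 5 worst ranks, the 5 longest and shortest peaks with ties, members with several peaks, with another protein-coding TSS in the window or on X, paralogs, and the genes around each subunit's median rank. The members and lists were chosen with earlier results of these data known. Alternatives covered the window, transcripts, first part of the list, overlap, coordinates, members and merging of peaks. The overlap of windows with peaks was tested on simulated peaks. Python 3.11.15, numpy 2.4.6, pandas 2.3.3, scipy 1.17.1, pysam 0.24.0 and matplotlib 3.10.9 were used. Values of a few members are not reported here.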

Additional observations from a re-analysis of the deposited data

How the results depend on the processing

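The share of ribosomal protein genes with a peak was 87.8% for windows of 500 bp on both sides, with 1 reference transcript, with every transcript, with at least 100 bp of overlap and with starts read as 0-based, and it stayed between 86.2% and 92.1% when the window was widened to 5 kb or the members were changed. Using only the first 7674 ranks lowered it to 71.95% (large subunit 72%, small subunit 71.88%), while the share of all protein-coding genes fell to 30.03%. The share of all protein-coding genes was otherwise 46.22% within 5 kb, 42.67% within 500 bp, 45.05% with every transcript and 42.19% with 1 reference transcript. Restricting to CpG-rich TSSs, an alternative chosen after seeing the data, gave 80.13%. Merging peaks up to 1000 bp apart raised the median length at members to 1000 bp. Counting every protein-coding transcript raised the share of members with a TSS inside a peak from 58.54% to 71.95%, and the nearest TSS moved the median centre from 338 to 230 bp downstream. The other 33 of 45 alternatives moved a value by less than its 95% interval. No paired analysis was possible because the list pools all samples and carries no replicate number, and leaving out a replicate could not be run for the same reason. No depth is known for any peak, so binding below the calling threshold cannot be seen.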

Other observations

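The lists of ribosome biogenesis genes and of regulators of ribosomal protein synthesis spanned nearly the whole order of peaks. Among 30 biogenesis genes, 26 had a peak. The best ranks were those of Ncl (205) and Ubtf (263), a nucleolar protein and a factor of ribosomal RNA transcription, and the worst was that of Nop14 (14633). Dkc1, Nop10, Polr1e and Utp14a had no peak. Among 16 regulators, 15 had a peak (93.8%, interval 71.7 to 98.9), compared with 44.1% of all protein-coding genes and 80.1% of those with a CpG-rich TSS, and their median rank of 4445 was behind the 4167.5 of the ribosomal protein genes. Mycn, a MYC family factor, ranked 184 with a peak of 4100 bp, longer than the best peak of every ribosomal protein gene. Yy1 ranked 437, Larp1 ranked 442 and Myc ranked 3368, while Tbp ranked 6529, Eif4ebp2 ranked 8068 and Rps6kb2 ranked 14625. The peak at Tbp was also the best one of the proteasome gene Psmb1 and cannot be assigned to either gene alone. Zbtb33 was the regulator without a peak. The 12 limb genes, picked by hand, all had a peak (median 4700 bp, median rank 340). They ranged from Hand2 at rank 16 with 8450 bp to Fgf8 at rank 13856 with 250 bp, which ranked later than most ribosomal protein genes, and Prrx2 ranked 4371 with 600 bp.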
